A study of Mus musculus with 7 samples.

Results

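The genes described here mark the early steps of B cell development. They are the surrogate light chain genes Vpreb1 and Igll1, the related gene Vpreb3, and the recombinase genes Rag1 and Rag2. The others are the surface protein genes Cd93, Cd24a, Mme and Bst1, and the transcription factor gene Sox4. Together they are 10 of the 18193 genes that the array's annotation names singly. All were chosen by name and not by their values. A probe set counted for a gene only if the annotation named that gene and no other, which gave 26 probe sets. The TG group is 3 Eu-miR-155 transgenic FVB mice, which carry the microRNA miR-155 under the immunoglobulin heavy chain enhancer, active in the B lineage. The WT group is 4 wild-type FVB mice. B cells were prepared from the spleen of every mouse with a magnetic isolation kit, and RNA of each sample was hybridised to 1 array. The labels give no age or sex and do not say how many transgenic founder lines were used.

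In the bone marrow a developing B cell first assembles an immunoglobulin heavy chain gene from segments that RAG1 and RAG2 cut. The new heavy chain is displayed at the surface with a surrogate light chain made of VPREB1 and lambda5, the product of Igll1, and this pre-B cell receptor signals the cell to divide and then to rearrange its light chain genes. The surrogate light chain and recombinase genes are shut off once a complete receptor is made, while immature cells that have just reached the spleen still carry CD93 and much CD24. Mice with the Eu-miR-155 transgene are known for an early expansion of precursor B cells that can progress to leukaemia. All of this is background and not a result of these arrays.

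The sequence of the overexpressed microRNA is shown because it defines the transgenic group. The starts of Vpreb1, Igll1 and Vpreb3 are shown because these genes, which share upstream regulators, had such different signals. The mature miR-155-5p, at chr16:84714143-84714165 on the plus strand of GRCm38.p6, is given with its seed, bases 2 to 8, in capitals. The promoter windows run from 250 bases before to 50 bases after each gene's start in RefSeq on the same build, and all sequences are from RefSeq. Capitals in them mark CAGNTG on either strand, the E box form bound by E proteins such as the product of Tcf3, and ATTTGCAT on either strand, the octamer bound by OCT factors. The windows are chr16:16869206-16869505 on the minus strand for Vpreb1, chr16:16863936-16864235 on the minus strand for Igll1 and chr10:75948050-75948349 on the plus strand for Vpreb3.
miR-155-5p: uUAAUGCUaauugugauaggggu
Vpreb1: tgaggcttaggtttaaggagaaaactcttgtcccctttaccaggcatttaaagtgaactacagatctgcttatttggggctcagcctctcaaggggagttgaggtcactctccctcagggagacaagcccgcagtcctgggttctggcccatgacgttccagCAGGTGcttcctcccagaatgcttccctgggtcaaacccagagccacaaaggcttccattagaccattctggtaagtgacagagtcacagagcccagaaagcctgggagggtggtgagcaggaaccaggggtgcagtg
Igll1: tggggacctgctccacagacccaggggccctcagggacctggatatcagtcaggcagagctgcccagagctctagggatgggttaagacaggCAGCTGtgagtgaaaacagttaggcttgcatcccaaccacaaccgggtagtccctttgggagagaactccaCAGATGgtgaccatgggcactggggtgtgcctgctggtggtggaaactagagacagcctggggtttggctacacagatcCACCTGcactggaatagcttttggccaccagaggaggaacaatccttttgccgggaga
Vpreb3: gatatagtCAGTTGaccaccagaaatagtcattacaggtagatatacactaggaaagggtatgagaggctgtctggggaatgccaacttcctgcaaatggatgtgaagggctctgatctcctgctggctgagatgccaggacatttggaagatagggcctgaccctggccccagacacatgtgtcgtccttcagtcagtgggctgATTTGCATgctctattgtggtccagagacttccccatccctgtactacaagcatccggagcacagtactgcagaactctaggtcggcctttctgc
The Vpreb1 window held 1 E box, at -88 from the gene's start, and the Igll1 window held 3, at -158, -87 and -8. The Vpreb3 window held 1 E box at -242 and was the only one of the 3 with an octamer, at -45. An E box of this form was in 51.4% of the 32851 promoter windows of the table and an octamer in 1.7%. The core letters bound by EBF1, CCCNNGGG, were found once in the Igll1 window, at -231, not in the other two windows, and in 13.7% of all windows. None of the capitalised matches overlaps another. Of the 10 genes, 7 had a window in the table.

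Levels are given as the log2 values that the authors made with GCRMA, a method that corrects array background from probe sequence. It leaves undetected probe sets at a low common level, 2.17 being the lowest value in the table, and a value at or under 4 is called here not above background. By that measure 46.0% to 47.9% of an array's probe sets were detected. Genes of mature B cells were bright on every array, Ms4a1 (CD20) at 14.42 to 14.55 in TG and 14.44 to 14.75 in WT, and the mature B cell list had a summed level of 15.92 to 16.25 in TG and 16.35 to 16.47 in WT. TG replicate 3 stood apart from the other arrays in several of the genes below, and 6 of 9 T cell markers were above background on it alone, so the main differences are also given without it. WT replicates 3 and 4 had Xist at 2.22 and 2.81, against 13.73 to 13.93 on the TG arrays and 13.79 and 13.61 on WT replicates 1 and 2, so the sexes were not balanced between the groups. The groups were compared with limma over the 20994 probe sets that exceeded 4 on 3 or more of the 7 arrays. Nothing in the labels says more of the mice than their genotype and strain, so the p-values measure the spread between these samples.

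The surrogate light chain genes Vpreb1 and Igll1 and the recombinase genes were not above background on any array of either genotype. The related gene Vpreb3 was above background on every array, and Cd93 rose in the TG isolates. The 6 genes Vpreb1, Igll1, Rag1, Rag2, Mme and Bst1 had 9 probe sets, none of which exceeded 3.48 anywhere. The other 4 genes, Vpreb3, Cd93, Cd24a and Sox4, had 7 probe sets that could be tested. Of these 4 genes 1, Cd93, passed as higher in TG, where 8.11% of all 9517 genes tested passed as higher and 2.56% as lower. Cd93 and Sox4 were higher in TG with no overlap between the groups, as were 19.5% of all genes tested. With 4 tested genes these shares cannot be set against the background with any precision.

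**Figure D1:**
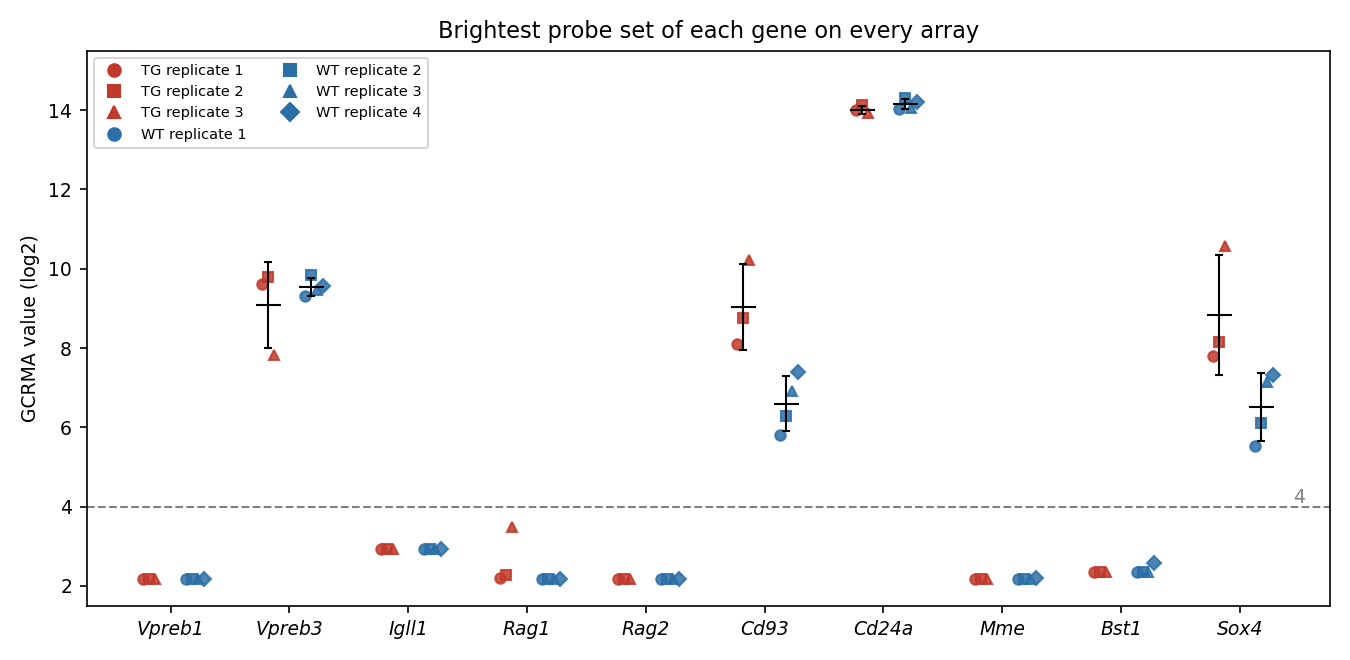
Log2 GCRMA value of the brightest probe set of each of the 10 genes on the 3 TG arrays (red, left) and the 4 WT arrays (blue, right), with black bars for the mean ± SD of each group of the 4 tested genes and a dashed line at 4, under which a value is not above background. Cd93 and Sox4 are higher on every TG array than on any WT array, Vpreb3 is at 7.83 on TG replicate 3 against 9.30 or more elsewhere, and 6 genes lie under the line on every array.

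Vpreb1 encodes the variable-like part of the surrogate light chain. Its probe set was at 2.17 on all 3 TG arrays and all 4 WT arrays, the lowest value in the table. A further probe set, which the annotation gives to both Vpreb1 and its near-identical copy Vpreb2 and which therefore is not counted, was at 2.25 on the 3 TG arrays and at 2.25 to 2.31 on the WT arrays. Igll1 encodes lambda5, the constant-like part. One Igll1 probe set was at 2.94 on all 7 arrays, and the other lay between 2.21 and 2.47 in TG and between 2.21 and 2.23 in WT. A signal for either part of the surrogate light chain was therefore not detectable with these probe sets in any isolate.

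Vpreb3 encodes a related protein that binds immunoglobulin chains inside the cell and, unlike the surrogate light chain, is also made in immature and mature B cells. It was clearly above background throughout, at 9.61, 9.79 and 7.83 on TG replicates 1, 2 and 3, against 9.30, 9.83, 9.47 and 9.56 on WT replicates 1 to 4. TG replicates 1 and 2 lay within the range of the WT arrays, and TG replicate 3 lay 1.78 below the nearer of those 2 and 1.48 below the lowest WT array, so the spread of the TG group came from that array. The mean was 9.07 ± 1.08 in TG (SD, n = 3) and 9.54 ± 0.22 in WT (SD, n = 4). The difference of -0.47 ± 0.47 (SE) did not pass with limma (adjusted p = 0.517), and its 95% interval, -1.59 to 0.65, holds both a fall and a smaller rise. Without TG replicate 3 the difference was 0.15 ± 0.15 (adjusted p = 0.564). The 3 genes whose pattern over the 7 arrays was most like that of Vpreb3 were Cbx8, Tcl1b3 and Snx25, with Pearson's r of 0.992, 0.989 and 0.987. Each of them was also lowest on TG replicate 3, Cbx8 at 6.24 there against 6.84 or more on the other arrays.

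Rag1 and Rag2, whose products together form the enzyme that cuts antigen receptor genes, lie side by side on chromosome 2. Rag2 was at 2.17 on every TG and every WT array. Rag1 was at 2.19, 2.27 and 3.48 on TG replicates 1, 2 and 3 and at 2.17 on all 4 WT arrays. The TG values of Rag1 were thus the higher ones, but all 7 were under 4, in the range that GCRMA does not separate from background, and the gene was not tested.

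Mme encodes the surface peptidase CD10 and Bst1 the surface enzyme CD157, called BP-3, which in the mouse is carried by precursor B cells and by myeloid and stromal cells. The 2 Mme probe sets were at 2.17 on every TG array and at 2.17 to 2.19 in WT. The brighter Bst1 probe set was at 2.35 on the 3 TG arrays and at 2.35 on 3 of the 4 WT arrays, with 2.57 on WT replicate 4. The second Bst1 probe set was at 2.17 everywhere but on WT replicate 4, where it was at 2.25. None of these values is above background.

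Cd24a encodes the heat-stable antigen, a small surface glycoprotein that is dense on immature B cells and less so on mature ones. Its 3 probe sets were all bright and differed little between mice. On the brightest it stood at 14.01, 14.12 and 13.92 on TG replicates 1, 2 and 3, against 14.03, 14.32, 14.06 and 14.21 on WT replicates 1 to 4. The groups overlapped. The difference was -0.14 ± 0.09 (SE; limma adjusted p = 0.322), with a 95% interval of -0.34 to 0.07, and -0.09 without TG replicate 3 (adjusted p = 0.606). The other probe sets differed by -0.09 (adjusted p = 0.45) and -0.20 (adjusted p = 0.39), and their 95% intervals reached from -0.28 to 0.09 and from -0.56 to 0.16. An increase of Cd24a beyond 0.16 on the log2 scale lies outside all 3 intervals.

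Cd93 encodes a C-type lectin-like receptor, the AA4.1 antigen, that marks bone marrow precursors and newly arrived splenic B cells and is also carried by blood progenitors, monocytes and endothelium. It was at 8.10, 8.77 and 10.23 on TG replicates 1, 2 and 3, against 5.81, 6.28, 6.91 and 7.40 on WT replicates 1 to 4. Every TG array was above every WT array, the nearest pair 0.70 apart, and TG replicate 3 was 1.45 above the next TG array. The rise was 2.43 ± 0.58 on the log2 scale (SE; 5.40-fold, limma adjusted p = 0.0493), which 2.11% of all genes tested matched or exceeded. A second probe set stood at 8.10, 8.55 and 9.84 in TG and at 5.18, 6.62, 6.63 and 7.19 in WT, again without overlap. It gave the same difference of 2.43, and its adjusted p of 0.0502 fell just short of the threshold. The other 3 Cd93 probe sets did not exceed 3.00 on any array.

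The Cd93 call rested on nearly every array, while the sign of the difference did not. Without TG replicate 3 it was 1.84 ± 0.48 (SE; limma adjusted p = 0.0794), and against WT replicates 1 and 2 alone, which had Xist high like the TG arrays, it was 2.99 ± 0.69 (adjusted p = 0.152). The call was also lost without TG replicate 2 (adjusted p = 0.124) or without WT replicate 1, 2, 3 or 4 (0.108, 0.127, 0.102 and 0.0760), and it held without TG replicate 1 (2.90, adjusted p = 0.0407).

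Sox4 encodes a transcription factor needed for early B cell development and active in many progenitor cells. Its brightest probe set was at 7.79, 8.14 and 10.57 on TG replicates 1, 2 and 3, against 5.52, 6.10, 7.14 and 7.33 on WT replicates 1 to 4. The groups did not overlap, with 0.46 between the nearest arrays, and TG replicate 3 lay 2.43 above the next TG array. The difference was 2.31 ± 0.77 (SE, 95% interval 0.47 to 4.15). It was slightly smaller than that of Cd93, with a wider spread, and did not pass with limma (adjusted p = 0.109). Without TG replicate 3 it was 1.44 ± 0.55 (adjusted p = 0.177). Against WT replicates 1 and 2 alone the Sox4 difference was 3.02 ± 0.95 (SE, limma adjusted p = 0.205). WT replicates 3 and 4, which had Xist low, lay at least 1.03 above WT replicates 1 and 2 on this probe set. For the 2 tested Cd93 probe sets that gap was 0.64 and 0.01. The part of sex in these values was not tested.

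The dimmer Sox4 probe sets separated TG replicate 3 from the rest. One was at 3.94, 4.68 and 7.77 on TG replicates 1, 2 and 3 and at 3.28 to 3.94 in WT, another at 3.98, 4.84 and 7.17 in TG and at 3.57 to 3.79 in WT. A further one was above background on TG replicate 3 alone, at 4.81. These 3 were above 4 on fewer than 3 arrays and were not tested, and the last 4 of the 8 Sox4 probe sets were at 2.17 on every array.

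**Figure D2:**
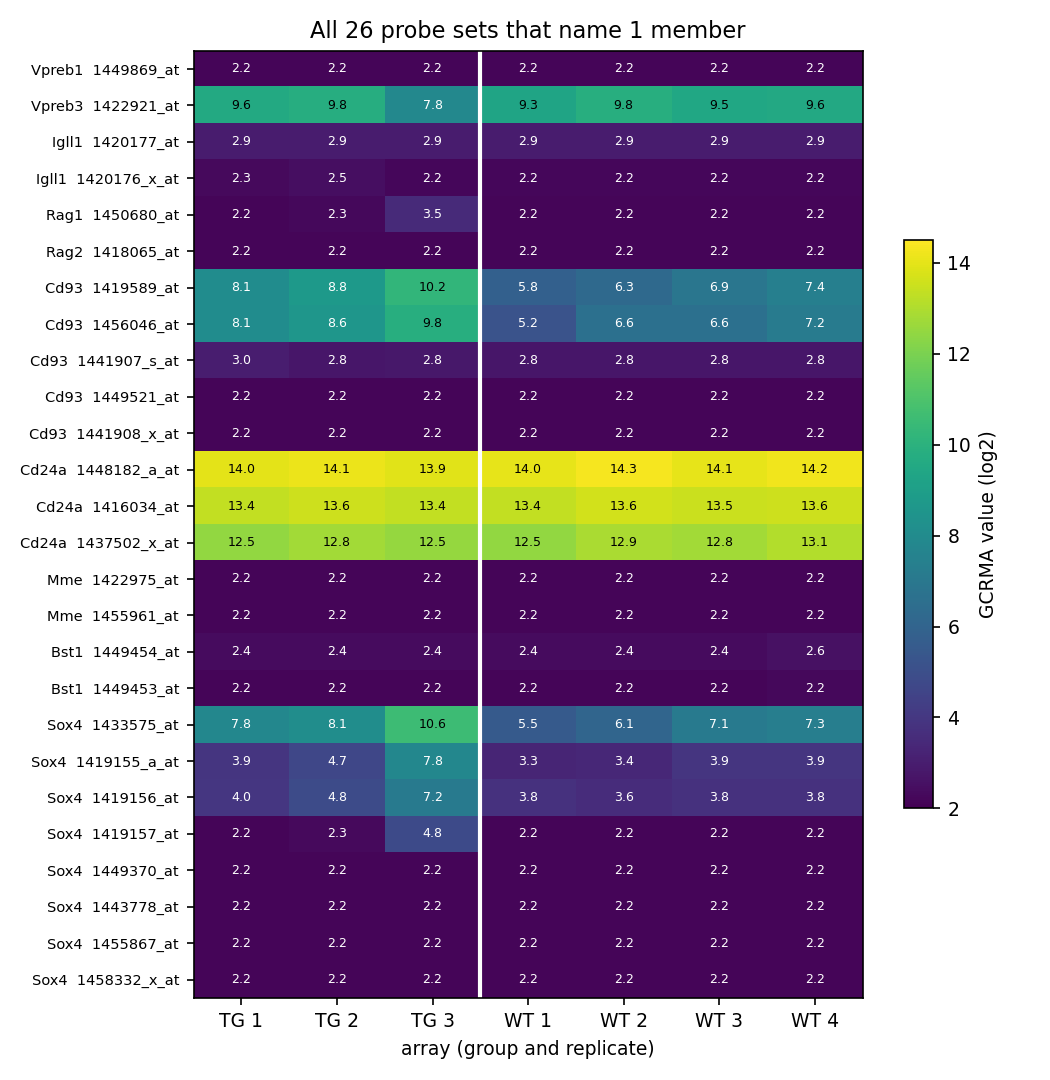
Log2 GCRMA value of each of the 26 probe sets (rows, by gene and probe set) on the 3 TG arrays (left of the white line) and the 4 WT arrays (right). Within a gene the probe sets differ in brightness: 2 of the 5 for Cd93 and 4 of the 8 for Sox4 exceed 4 on at least 1 array, all 3 for Cd24a are bright on every array, and those of Vpreb1, Igll1, Rag1, Rag2, Mme and Bst1 stay under 4.

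The nearest patterns to that of Cd93 over the 7 arrays were those of Idh1, Ifitm6 and Spn, with Pearson's r of 0.993, 0.993 and 0.992. Spn encodes the sialoglycoprotein CD43. It stood at 7.41, 8.35 and 10.09 on the TG arrays and at 5.56, 5.94, 6.40 and 6.80 on the WT arrays. Its order of arrays was the same as that of Cd93. Idh1 stood at 8.08, 8.38 and 9.06 in TG and at 7.21, 7.25, 7.46 and 7.69 in WT. Ifitm6 stood at 6.1, 6.73 and 8.33 in TG and at 3.66, 3.58, 4.36 and 5.16 in WT. Which cells gave these signals was not tested. The difference of Spn, 2.44, did not pass with limma (adjusted p = 0.0607).

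Other genes of B cell precursors were read from a list of 10 that holds Spn and none of the 10 genes above. The list was drawn up with earlier results of these arrays known. Of the 5 that could be tested 4 rose and 1, Spn, did not pass. Kit and Cd34 were above 4 on fewer than 3 WT arrays and entered the test through the TG arrays, so the count is not evidence about the list. The median difference of the 5, 2.44 with values under 4 set at 4, is in part set by the same filter and is not evidence either. The cytokine receptor gene Flt3 was at 7.60 to 8.09 in TG and at 5.86 to 5.95 in WT, a rise of 1.86 ± 0.13 (SE; limma adjusted p = 0.00271). The stem cell factor receptor gene Kit, above background on 2 of the 4 WT arrays, rose by 3.99 (adjusted p = 0.0186), and the transcription factor gene Myb by 3.75 (adjusted p = 0.0215). Cd34, the progenitor sialomucin gene, was not above background on any WT array and was at least 3.54-fold higher in TG (adjusted p = 0.0237). Kit, Myb, Cd34 and Spn were highest on TG replicate 3, and without it the differences of Flt3, Kit and Myb were 1.94, 3.27 and 3.00 (limma adjusted p = 0.00407, 0.00956 and 0.00944), Cd34 still passed (adjusted p = 0.00542) and Spn did not (1.70, adjusted p = 0.0716). Blood progenitors of other lineages express Flt3, Kit, Myb and Cd34, as background.

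The remaining precursor genes except Erg were above background on TG replicate 3 alone. Dntt encodes terminal transferase, which adds bases where the breaks made by RAG are joined in early lymphocyte precursors. It was at 10.64 on TG replicate 3 and at 2.17 on the other 2 TG arrays and on all 4 WT arrays. Lef1, a transcription factor gene of precursor B cells and T cells, was at 6.73 on TG replicate 3, the interleukin-7 receptor gene Il7r at 4.81 and Arpp21 at 4.17, and these 3 were not above background on any other array. Erg was not above background on any array, with 3.64 on TG replicate 3. On this same array Vpreb1, Igll1 and Rag2 were at their common low values and Rag1 was at 3.48. T cell genes were high on it too: of 9 T cell markers, 6 (Cd3e, Cd3d, Cd4, Cd8b1, Themis and Cd5) were above background on TG replicate 3 alone, with Cd3d at 10.70. Early T cells also express Dntt, Lef1 and Il7r, as background. Their part in these values was not tested.

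Most genes of the enzymes that close the breaks made by RAG were above background in both genotypes. Of 9 tested genes of end joining and its partners, 2 rose and 7 did not pass (median difference -0.09). Over all genes tested 8.11% passed as higher. Hmgb2, a DNA-bending cofactor of the recombinase that dividing cells make in quantity, rose by 1.15 ± 0.26 (SE; limma adjusted p = 0.045). Xrcc6, which encodes Ku70, rose by 0.27 ± 0.06 (adjusted p = 0.0469). Without TG replicate 3 neither passed, Hmgb2 at 0.86 (adjusted p = 0.059) and Xrcc6 at 0.29 (adjusted p = 0.0543). The polymerase genes Polm and Poll differed by -0.25 (adjusted p = 0.211) and -0.29 (adjusted p = 0.325).

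The listed genes of pre-B cell receptor signalling and of B lineage factors were bright in both genotypes. Of 18 tested, 2 fell and 16 did not pass, with a median difference of -0.33, where 2.56% of all genes tested passed as lower. Lower in TG with no overlap between the groups were 7 of the 18, against 10.4% of all genes tested. Foxo1, which encodes an activator of Rag transcription, fell by 0.55 on the log2 scale (SE 0.11, limma adjusted p = 0.0298), and Bach2, a repressor gene of the B lineage, fell by 0.70 (SE 0.17, adjusted p = 0.0499). Without TG replicate 3 Foxo1 still passed (-0.44, adjusted p = 0.0371) and Bach2 did not (-0.66, adjusted p = 0.114). Irf4 differed by -0.38 (adjusted p = 0.0719) and Foxp1 by -0.44 (adjusted p = 0.116). Ebf1, an activator of Vpreb1 and Igll1, was at 11.18 to 11.87 in TG and 11.87 to 12.03 in WT, Pax5 at 9.54 to 10.17 in TG and 10.17 to 10.53 in WT, and Tcf3 at 10.23 to 11.11 in TG and 10.95 to 11.08 in WT. These 3 factor genes were therefore well above background on the arrays where their targets Vpreb1 and Igll1 were not, and none of the 3 differed past the threshold (adjusted p = 0.162, 0.141 and 0.553). For each of the 3 the lowest value was that of TG replicate 3.

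Several marker lists of other cells also differed between the groups. A marker above 4 on fewer than 3 WT arrays could be tested only where TG arrays also exceeded 4. The counts of markers that rose are therefore in part set by that filter. Such markers were 5 of the 6 tested granulocyte genes (all 6 rose), 2 of 5 of monocytes and macrophages and 3 of 4 of natural killer cells. They were also 3 of 4 of erythroid cells, 1 of 2 of T cells, the 1 of progenitors and 1 of 7 of cell division. The granulocyte level summed over the 12 listed genes, as log2 of the summed linear values, was 13.94 to 14.96 in TG and 6.39 to 8.02 in WT, with Mmp8 and Fcnb not above background anywhere. Of 5 tested monocyte and macrophage genes 2, Cd68 and Ccr2, rose and 3 did not pass (without TG replicate 3 Ccr2 did not, adjusted p = 0.0836). The list's summed level was 11.12, 11.76 and 12.09 on TG replicates 1, 2 and 3 and 7.52, 8.58, 10.18 and 11.60 on WT replicates 1 to 4. Cd14 was not above background anywhere. Within each group this sum had the array order of Cd93 and Sox4, but WT replicate 4 lay above TG replicate 1. The precursor B cell sum had that order too, at 10.01, 10.60 and 12.71 in TG and 7.70, 7.82, 8.07 and 8.31 in WT. Granulocyte, erythroid, T cell, natural killer, progenitor and cell division sums also rose from TG replicate 1 to 3. In WT the cell division sum did not have the order of Cd93, at 9.96, 9.25, 8.22 and 9.0 on replicates 1 to 4. Among the granulocyte genes Elane, Mpo, Prtn3 and Ctsg rose from TG replicate 1 to 3. S100a8, S100a9, Ngp, Camp and Ltf were instead highest on TG replicate 1, Ngp at 7.68, 2.34 and 5.8 on TG replicates 1, 2 and 3. Of the blood stem and progenitor list only Cd34 could be tested, and the summed level was 6.14 to 8.13 in TG and 5.05 to 5.25 in WT, with Gata2, Hoxa9, Mecom and Cpa3 not above background on any array. All 7 tested cell division genes rose (5 without TG replicate 3), with a summed level of 11.22 to 12.94 in TG and 8.22 to 9.96 in WT.

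The other lists moved less evenly. The T cell sum was 6.96, 7.57 and 11.65 in TG and 6.73 to 6.80 in WT, where 2 genes could be tested and neither passed. Without TG replicate 3 Cd3g passed as higher with limma (2.12, adjusted p = 0.00309). It was only just above background on TG replicates 1 and 2, at 4.02 and 4.55, and at 2.17 on the WT arrays. For natural killer cells Gzma, Nkg7 and Klrd1, none above background on any WT array, passed as higher, and did so without TG replicate 3 too; the sum was 9.12 to 11.31 in TG and 7.06 to 7.61 in WT, with Ncr1 and Eomes not above background. For erythroid cells Klf1, Slc4a1 and Car1, none above background on any WT array, passed as higher. Car2, which did not pass, carried 52.9% to 97.9% of the erythroid sum, which was 10.40 to 11.85 in TG and 10.65 to 10.89 in WT, with Alas2 and Epb42 not above background. Of 8 stromal and endothelial markers 6, among them Col1a1, Dcn and Cdh5, were not above background on any array, and Pecam1 carried 86.5% to 97.2% of the sum, which was 10.32 to 10.52 in TG and 10.69 to 10.94 in WT. Of 7 tested mature B cell genes 3 fell and 4 did not pass, where 2.56% of all genes tested passed as lower. Lower in TG with no overlap were 5 of the 7, against 10.4% of all genes tested. In an isolate of mixed cells a gene's level cannot tell more cells of a type from more RNA per cell, and the part of these other cells in the values of Cd93 and Sox4 was not tested.

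**Figure D3:**
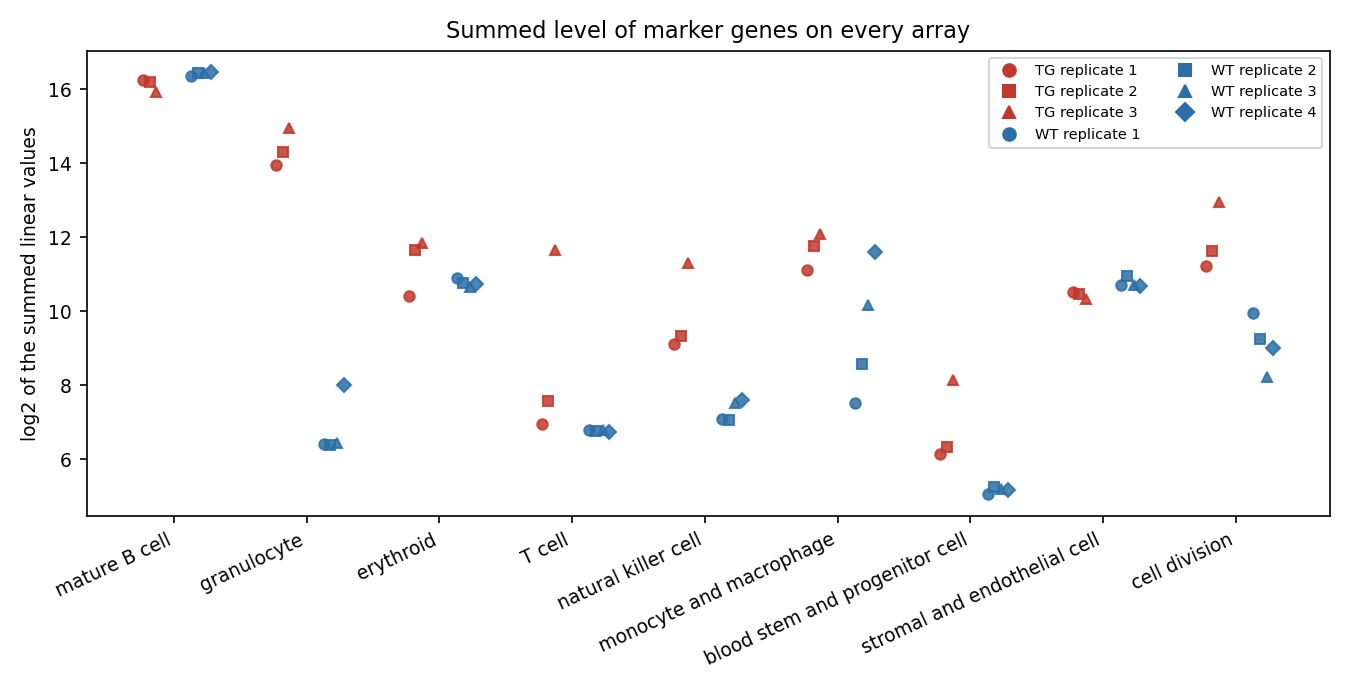
Summed level of each marker list, as log2 of the sum of the linear values of its genes, on the 3 TG arrays (red, left) and the 4 WT arrays (blue, right). The granulocyte list separates the groups most widely (13.94 to 14.96 in TG and 6.39 to 8.02 in WT), the monocyte and macrophage list overlaps between them, and the T cell list is high on TG replicate 3 alone (11.65).

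**Figure D4:**
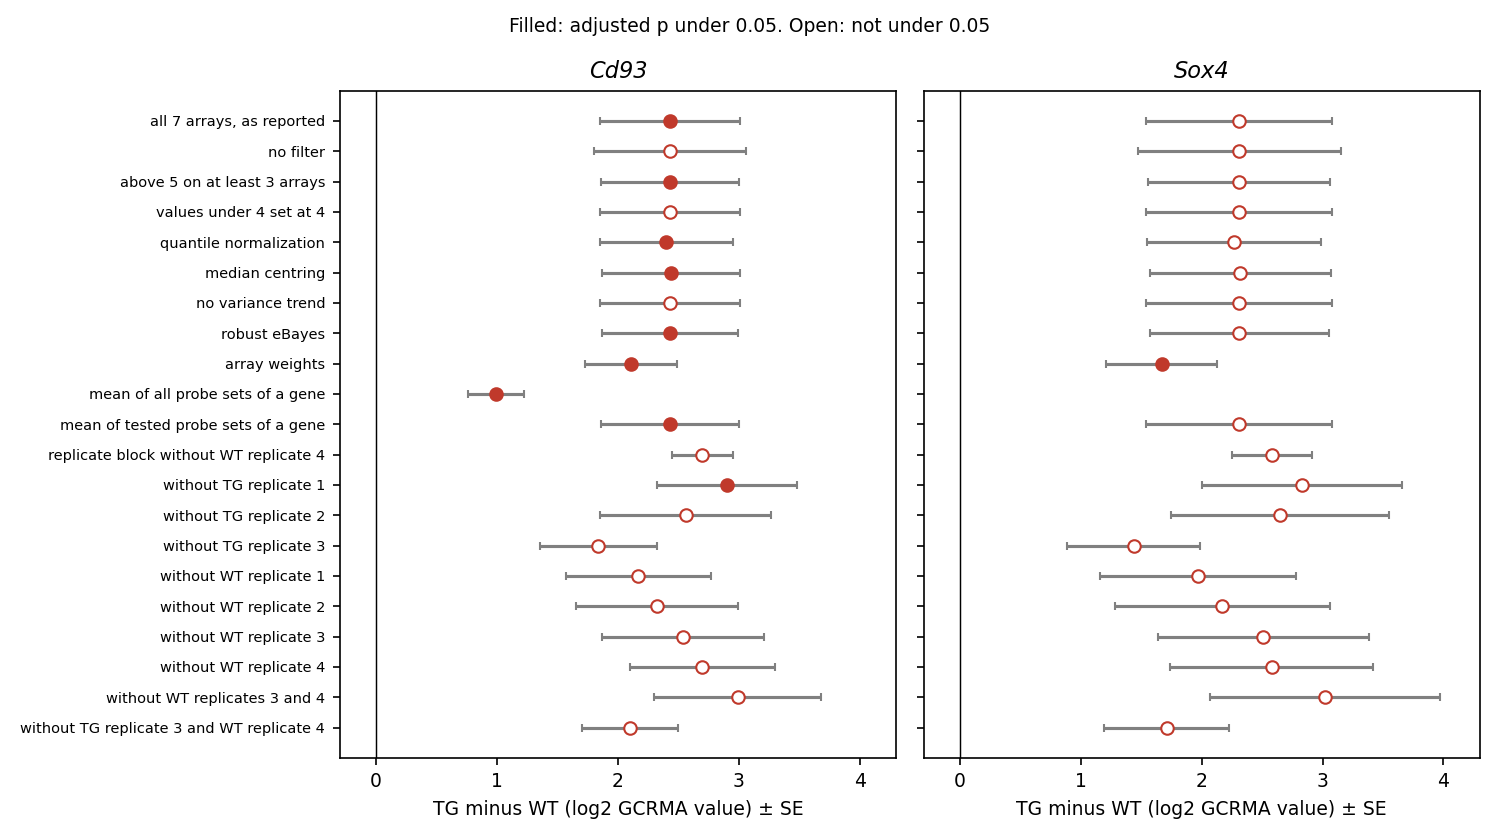
TG minus WT difference of Cd93 (left) and Sox4 (right) in log2 GCRMA units with its SE, for the analysis as reported (top) and for each alternative; filled points have an adjusted p under 0.05. All points lie above 0. Cd93 is filled in the reported analysis at 2.43 and open in 12 alternatives, and Sox4 is filled with array weights alone.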

How the data were processed

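Splenic B cells of 3 Eu-miR-155 transgenic (TG) and 4 wild-type (WT) mice were measured on 1 array each. The deposited values are log2 values that the authors made with GCRMA, per the submitters' processing notes; the version and the genome build behind the array are not given in the sources used here. The method's background correction brings dim genes to a low common level and compresses their differences. Its quantile step brings the arrays close to 1 distribution. The deposited arrays still differed slightly, with 46.0% to 47.9% of probe sets above 4. Scanner files were not used here, so no scan batch was tested, and precision is limited by there being 7 arrays.

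Of 45101 probe sets, 34945 named 1 gene, 932 several and 9160 none, and 64 were controls. The Entrez identifier of 34741 was found in a RefSeq table of GRCm38.p6, and 0 symbols changed. Probe sets that exceeded 4 on 3 or more of the 7 arrays were fitted with limma 3.58.1 (lmFit and eBayes with an intensity trend, R 4.3.3), with Benjamini-Hochberg adjustment over all 20994 and a threshold of 0.05. For each gene the tested probe set with the highest mean was used, giving 9517 genes, of which 1016 passed, or 10.7%. The fit was tested on simulated data. The genes described, the lists and the alternatives were chosen with earlier results of these data known. Named are the 10 genes, up to 4 genes of smallest p from each of 3 pathway lists, and the 3 genes of highest Pearson's r with each of Vpreb3 and Cd93; genes of the lists beyond these were named after their values were seen, as were the marker genes. Some listed genes are not reported here. Cd34 stands in both the precursor and the progenitor list.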

Additional observations from a re-analysis of the deposited data

How the results depend on the processing

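The direction of the Cd93, Sox4 and Cd24a differences was kept under every alternative run in which the gene could be tested. The Cd93 difference ran from 0.99, with all 5 of its probe sets averaged, 3 of them not above background, to 2.99. Its adjusted p ran from 0.00936 to 0.167. The call held in 9 of 21 alternatives, among them the reported fit read at an adjusted p under 0.1, which it had to pass. Beyond the arrays left out above, it was lost with no filter (0.167), with values under 4 set at 4 (0.0508) and without a variance trend (0.0525). Sox4 ran from 1.44 to 3.02 and passed with array weights alone (1.67, adjusted p = 0.0351); averaged over its 8 probe sets it could not be tested. The difference of Vpreb3, not called, was -0.83 to 0.15 when single arrays were left out and turned to 0.06 with array weights, to 0.15 without TG replicate 3 and to 0.16 without both TG replicate 3 and WT replicate 4. The number of the 10 genes called, 1 as reported, was 0 in 12 alternatives (no filter, values set at 4, no trend, the block, both pairs of arrays left out, and single arrays), 0 to 1 when single arrays were left out, and 2 with array weights. The number without overlap, 2, became 1 when all probe sets were averaged, 3 with no filter (Rag1 added, all its values under 4) and 3 without TG replicate 2 (Cd24a added). Of all genes, 1016 were called as reported, 116 with no filter, 2763 with array weights, 1863 at an adjusted p under 0.1, 12 without WT replicates 3 and 4, 408 without TG replicate 3 and WT replicate 4, and 87 to 1074 when single arrays were left out. The replicate numbers do not pair the mice by any label, and the deviations of same-numbered arrays from their group means correlated at -0.04, -0.14 and -0.29. With a replicate block, fitted without WT replicate 4, 3 genes were called, Cd93 stood at 2.70 (adjusted p = 0.123) and 0 of the 10 genes passed. The averaging of tested probe sets alone was chosen after seeing the data. The low level of GCRMA limits what can be said of the 6 genes not above background: their values do not exclude low expression.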
